A study of Arabidopsis thaliana with 27 samples.

Results

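Seedlings of Arabidopsis thaliana Col-0 that had germinated and grown on agar with 150 mM sorbitol were compared with seedlings grown on the same medium, ATS, without sorbitol (control). The comparison used 6 of the 27 arrays of the study, the 3 titled for 150 mM sorbitol and the 3 titled for the ATS medium, and 21509 of the 25383 genes with a probe, the remaining 3874 being too dim to test. In both groups the seedlings were 2 weeks old, carried no introduced mutation or transgene named in the labels, and had been sown onto their medium, so the treated plants met sorbitol from germination on. The remaining arrays, 3 a group, hold 100, 200 and 250 mM sorbitol and NaCl at 50, 75, 100 and 125 mM, and are used here only to place the 150 mM group among its neighbours. Each single-colour Agilent array measured RNA from whole seedlings, shoot and root together, so fewer cells of a type and less RNA per cell cannot be told apart in any value. All groups share 1 accession, 1 base medium and 1 light and temperature regime. The study calls the arrays of a group biological repeats. The labels do not say whether they come from separate cultures, and the p-values measure the spread between these arrays. With 3 arrays against 3 an exact two-sided permutation test can give no p under 0.1, so genes were tested with limma, which shares information on the spread across genes and arrays. A value is a quantile normalised signal intensity, a gene takes its brightest probe, and "rose", "fell" and "past 0.01" refer to a Benjamini-Hochberg adjusted p under 0.01.

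Sorbitol is a sugar alcohol that lowers the water potential of the medium without adding ions. Plant cells that lose turgor accumulate abscisic acid, whose receptors (the PYR and PYL proteins) bind and inhibit clade A protein phosphatases 2C. The phosphatases hold SnRK2 kinases inactive, and kinases set free of them phosphorylate ABF transcription factors, which bind the promoters of genes for dehydrins, other protective proteins and enzymes that make compatible solutes such as proline and raffinose sugars.

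The arrays of the 150 mM group were less alike than those of the control. Between 70.1% and 75.9% of spots were well above background on the control arrays and between 78.4% and 80.8% on the 150 mM arrays, and 0 spots were saturated. The median gene's SD between the 3 arrays was 0.082 log2 at 150 mM against 0.037 in the control, or 5.68% against 2.56% of the signal. Replicate 1 of 150 mM lay apart, at a root mean square difference of 0.43 and 0.43 log2 from replicates 2 and 3, which differed from each other by 0.34. It was hybridised on slide 4, and replicates 2 and 3 on slide 6. Control replicate 1 was on slide 1 and control replicates 2 and 3 on slide 2. No slide thus holds both groups, each slide was scanned by itself, and treatment and slide cannot be told apart in the main comparison. The 200 mM arrays were divided over slides 4 and 6 in the same way as the 150 mM arrays.

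Part of the distance of replicate 1 followed the slides. Among genes well above background on all 6 arrays, 131 had replicate 1 of 150 mM at least 2-fold above both other replicates, and 8 had it at least 2-fold below. In these 131 genes the median log2 difference from the control mean was 1.25 on replicate 1, -0.16 on replicate 2 and -0.11 on replicate 3. It lay between 0.98 and 1.25 on all other arrays of slides 4, 5 and 7, whatever their treatment, and between -0.20 and 0.048 on every array of slides 1, 2, 3 and 6, the controls included. The protochlorophyllide reductase gene PORA (AT5G54190) had signals of 1948, 245 and 223 at 150 mM and of 192, 172 and 177 in the control, and the catalase gene CAT1 (AT1G20630) had 96128, 31774 and 40238 against 44973, 41603 and 43262. Dimmer PORA probes, not well above background on all 6 arrays, had log2 fold changes of 2.17 and 1.57 at 150 mM. In these probes replicate 1 lay at -0.73 and -0.92 log2 from the other replicates. Of the 131 genes, 12 had another probe well above background on all 6 arrays. The 14 other probes had a median difference of 0.097 log2 between replicate 1 and the others, against 1.61 for the reported probes of the same genes. Over all groups, 68 of 34285 probes had the 11 arrays of slides 4, 5 and 7 at least 2-fold above each of the other 16 arrays, and 0 had them below. Of the 131 genes, 9 were past 0.01 against the control with all arrays and 19 without replicate 1. What set these probes apart was not tested. The counts of genes past 0.01, and those of the lists against the control, were also made without replicate 1.

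**Figure D1:**
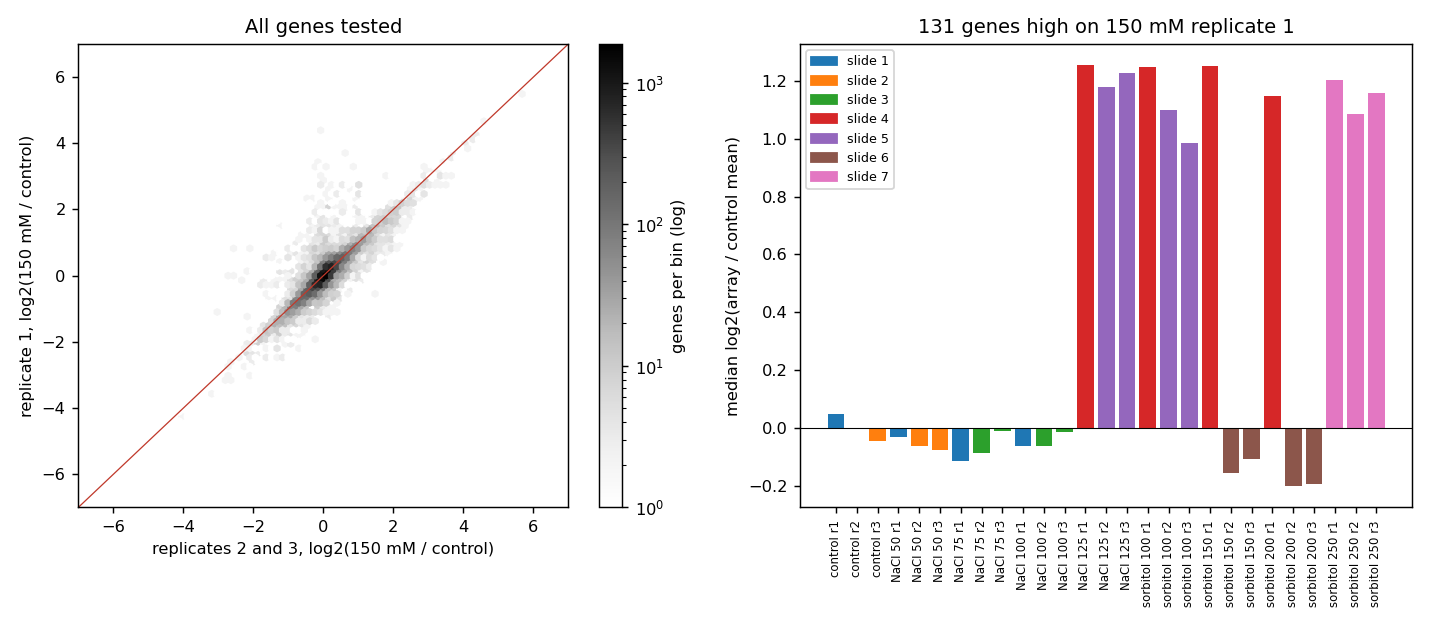
Left, log2 difference between 150 mM replicate 1 and the control mean (y axis) against that of the mean of replicates 2 and 3 (x axis) for all genes tested, shaded by genes per bin, with the line of equality in red. Right, median log2 difference from the control mean of the 131 genes high on 150 mM replicate 1, for each of the 27 arrays, coloured by slide; the arrays of slides 4, 5 and 7 lie between 0.98 and 1.25, and those of slides 1, 2, 3 and 6 lie near 0.

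Against the control, 10737 genes were past 0.01 (49.9% of those tested), 5820 of them higher (27.1%) and 4917 lower (22.9%). Most of these differences were small, their median size being 0.34 log2. At least 2-fold changes numbered 1386 (6.44%), of which 840 were rises (3.91%) and 546 falls (2.54%). The 3 treated arrays lay wholly above or wholly below the 3 controls at 13012 genes (60.5%), above at 32.7% and below at 27.8% of all genes. Without replicate 1 of 150 mM, 10338 genes were past 0.01 (48.1%), and 9550 of the genes called with all arrays remained in the same direction. The fit to all 27 arrays pools the spread over all 9 groups, most of which are tighter than the 150 mM group. Fitted on their own 6 arrays, the groups differed at 6590 genes (30.6%), 6529 of them shared with the fit to all arrays, and 1204 of the 1386 at least 2-fold changes remained. With slide as a random block, 9603 genes were past 0.01. When each array was instead scaled to its 75th percentile, 5203 genes were higher and 5439 lower, so which direction was the more frequent one turned with the scaling. The median log2 difference of all genes was 0.022, and the lists of genes below are read against it and against the shares called above.

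The largest rises among genes measured well above background on all 6 arrays belonged to genes for protective proteins, a linker histone, an abscisic acid phosphatase, potassium uptake and beta-1,3-glucanases. COR15A (AT2G42540), a chloroplast protein that stabilises membranes during freezing and drying, had signals of 49025, 41888 and 39001 at 150 mM and 1356, 1379 and 1359.6 in the control. This is a 31.6-fold rise, with a log2 fold change of 4.98 (SE 0.066, adjusted p = 8.08e-23, n = 3 arrays a group by limma) and of 4.89 without replicate 1. HIS1-3 (AT2G18050), a linker histone known to be induced by drought, stood at 8406, 7996 and 8826 against 413, 410.0 and 419 (20.3-fold, adjusted p = 5.63e-27). HAK5 (AT4G13420), a high-affinity potassium transporter of roots, stood at 1559, 1767 and 1735 against 108, 99.2 and 105, a rise of 16.2-fold (adjusted p = 8.94e-24). In each of these genes, chosen for groups that do not overlap and for a large rise, the lowest treated array lay far above the highest control array. Replicate 1 of 150 mM differed from the mean of replicates 2 and 3 by 0.28 log2 in COR15A, 0.00093 in HIS1-3 and -0.17 in HAK5.

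Besides these, the 12 largest rises included HAI1 (19.3-fold), described with the phosphatases below, and 2 neighbouring glucanase genes. The pathogenesis-related glucanase PR2 (AT3G57260) had 4796, 4562 and 4379 at 150 mM and 335, 341 and 325 in the control (13.7-fold, adjusted p = 2.57e-23). For BG3 (AT3G57240), a beta-1,3-glucanase of the same gene cluster, the values were 1461, 1432 and 1555 and 125, 77.2 and 135 (13.6-fold), but its other, dim probe gave a log2 fold change of 0.045. The remaining 6 loci carry no name in the gene table. Of them, AT2G37870 rose most, from 248, 253 and 261 in the control to 13535, 12235 and 12664 at 150 mM (50.4-fold, adjusted p = 9.71e-28). AT3G03341, AT1G80130, AT3G02480, AT4G01390 and AT3G28270 rose by 13.1-fold to 48.7-fold. The 12 genes were chosen as called also without replicate 1 and with groups that do not overlap, and all 12 were also past 0.01 on the 6 arrays alone.

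Genes for a secreted lipase, a protein kinase, an abscisic acid receptor, a nitrate transporter and a defensin were among the largest falls. GLIP1 (AT5G40990), a GDSL lipase with antimicrobial activity, fell from 1112, 1138 and 1137 in the control to 32.5, 49.7 and 40.5 at 150 mM, which is 28.0-fold lower (log2 -4.81, SE 0.16, adjusted p = 2.74e-16). CIPK20 (AT5G45820), a kinase regulated by calcineurin B-like calcium sensors, had 3284, 3524 and 3439 in the control and 133, 153 and 159 at 150 mM (23.1-fold lower). NRT2.6 (AT3G45060), of the high-affinity nitrate transporter family, went from 4047, 3850.2 and 3975 to 319, 387 and 337 (11.4-fold lower). No treated array came near a control array in these genes, which were chosen for groups that do not overlap and for a large fall. PDF1.2 (AT5G44420), a defensin known to respond to jasmonate with ethylene, had 1789, 1760.1 and 1659 and 210.4, 151 and 137 (10.6-fold lower, adjusted p = 2.69e-05), and CYP71B22 (AT3G26200), a cytochrome P450, was 10.8-fold lower. AACT1 (AT5G61160) was 17.4-fold lower and the receptor gene PYL6 11.7-fold lower. AT1G26250 went from 26065, 25998 and 25902 to 1778, 1847 and 1743 (14.5-fold lower, adjusted p = 9.92e-28). It has no name in the gene table, nor have AT3G05950, AT3G60270, AT5G50140 and AT1G63055, which were 10.8-fold to 25.2-fold lower. The 12 falls were chosen in the same way, and all were past 0.01 on the 6 arrays alone.

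**Figure D2:**
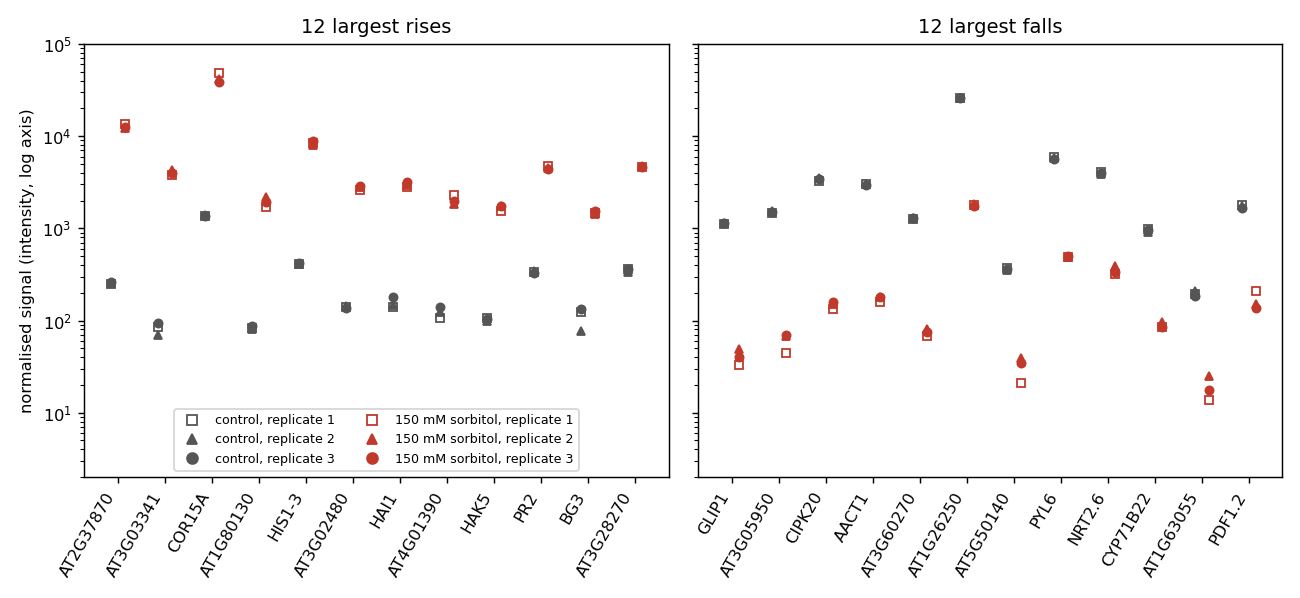
Normalised signal (log axis) of the 12 genes with the largest rise (left) and the 12 with the largest fall (right) at 150 mM sorbitol among genes well above background on all 6 arrays, 1 point for each array. The control arrays (grey) and the 150 mM arrays (red) do not overlap, which the choice of the 24 genes required, and replicate 1 (open squares) lies with the other replicates of its group or close to them.

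Some genes were above background in 1 of the groups alone, and their change has only a lower bound, computed against the lowest signal that counted as well above background on each array. At 150 mM, 484 genes exceeded background on each of the 3 arrays and on no control array, and 14 genes showed the reverse. The arrays differed in detection, with 78.4% to 80.8% of spots well above background at 150 mM and 70.1% to 75.9% in the control. The counts also include genes not past 0.01 and genes whose bound shows no rise, such as AT3G27600. They are therefore not counts of genes switched on or off. RD29B (AT5G52300), a hydrophilic protein whose promoter is a standard abscisic acid reporter, had 1485, 1308 and 1382 at 150 mM and 18.1, 21.3 and 21.2 in the control, and was at least 46.0-fold higher. EXPA2 (AT5G05290), an expansin that loosens cell walls and acts in seed germination, was at least 10.5-fold higher with 285, 331 and 333, and HSFA6A (AT5G43840), a heat shock transcription factor, at least 10.2-fold higher with 284, 330.1 and 310.2. AT3G17520 and AT5G40800 were at least 13.5-fold and 12.4-fold higher. In the other direction, the cytochrome P450 genes CYP82C2 (AT4G31970) and CYP82C3 (AT4G31950) lost their signal. CYP82C2 went from 516, 522 and 536 to 4.17, 4.88 and 4.23, at least 48.0-fold lower, and CYP82C3 from 124, 122 and 135 to 3.58, 4.12 and 3.57, at least 11.6-fold lower. The unnamed loci AT2G36255, AT4G19430 and AT5G52710 were at least 43.0-fold, 35.8-fold and 11.5-fold lower.

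Dehydration and cold effector genes, which encode dehydrins, late embryogenesis abundant proteins and lipid transfer proteins, rose nearly throughout. Of 19 members, 17 rose and 1 fell, where 27.1% of all genes were higher and 22.9% lower, and their median log2 fold change was 2.04 against 0.022 for all genes (1.93 with the members below background in the control at their lower bound). RD29A (AT5G52310), the classical dehydration marker, stood at 42902, 48073 and 44175 against 7969, 7938 and 8040.4 in the control (5.64-fold, adjusted p = 3.31e-20). LEA7 (AT1G52690), a late embryogenesis abundant protein, stood at 3034, 3311 and 3279 against 307, 299 and 299 (10.6-fold), and RD20 (AT2G33380), a calcium-binding lipid droplet protein, at 3435, 3411 and 3703 against 269, 285 and 291 (12.5-fold). Even the nearest arrays of the groups differed several fold in these genes. TSPO (AT2G47770), a membrane protein that targets an aquaporin for degradation, went from 38.8, 36.0 and 44.6 to 2318, 2174 and 2050.2 (55.0-fold, 2 of 3 control arrays well above background). The lipid transfer protein genes LTP3 and LTP4 had log2 fold changes of 2.94 and 3.48 (LTP4 with 1 of 3 control arrays well above background), and KIN1, KIN2 and COR15B of 1.72, 1.93 and 2.04, KIN1 on its brightest probe only (0.25 for the average of its probes, adjusted p = 0.766). These are pairs of near-identical genes (KIN1 with KIN2, COR15A with COR15B, LTP3 with LTP4), and the array cannot assign signal that cross-hybridises between the copies.

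The 5 dehydrins of the list moved by at most 1.01 log2 on their brightest probes, and not in 1 direction. ERD10 (AT1G20450) rose from 45824, 47889.8 and 48405 to 72822, 77975 and 74809.6 (log2 0.67), and LTI30 (AT3G50970) from 12229.7, 12398 and 12145 to 26687, 25176 and 22550.4 (log2 1.01). ERD14 (AT1G76180) fell from 24612, 23121 and 25781 to 18180.1, 18513 and 19509 (log2 -0.39, adjusted p = 2.66e-08), the only fall of the list, and COR47 (AT1G20440) was not past 0.01 (log2 0.20, adjusted p = 0.0273). All 4 were bright in the control. RAB18 (AT5G66400) depended on the probe and on replicate 1. Its brightest probe gave 30878, 20206 and 22910.5 against 15847, 15812 and 16367 (log2 0.60, adjusted p = 0.00276, and 0.027 without replicate 1), while its other 2 probes that were well above background on all 6 arrays gave log2 fold changes of 2.61 and 2.67. The list's count without replicate 1 was 16 higher and 1 lower.

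Abscisic acid receptor genes were lower at 150 mM and phosphatase genes higher. None of the 9 receptor genes rose and 7 fell, with a median log2 fold change of -0.68. PYL6 (AT2G40330) fell from 5978, 5751 and 5715 in the control to 492, 489 and 505 at 150 mM (11.7-fold lower, log2 -3.55, SE 0.031, adjusted p = 1.34e-25). For PYL5 (AT5G05440) the control arrays read 22589.8, 22550.4 and 22227 and the 150 mM arrays 10789, 10204 and 10835 (2.12-fold lower), and for PYL4 (AT2G38310) 11660.4, 11399.5 and 11328 and 5555, 5332 and 4907 (2.18-fold lower). The ranges of the groups did not overlap in these genes. PYR1 (AT4G17870) had a log2 fold change of -0.68, PYL2 of -0.90, PYL1 of -0.62 and PYL8 of -0.32. PYL9 (-0.12, adjusted p = 0.0298) and PYL7 (0.0068, adjusted p = 0.96) were not past 0.01. The summed signal of the list lay between 95237 and 96269 on the control arrays and between 55478 and 56672 on the 150 mM arrays.

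The clade A phosphatases, which the receptors inhibit, had 8 of 9 genes higher and 0 lower, with a median log2 fold change of 0.81. HAI1 (AT5G59220) stood at 2785, 2972 and 3193 at 150 mM and 139, 146 and 181 in the control (19.3-fold, adjusted p = 1.20e-19). HAI2 (AT1G07430) stood at 153, 172 and 169 against 4.78, 20.1 and 15.0 and HAI3 (AT2G29380) at 43.6, 74.2 and 63.0 against 6.37, 25.6 and 22.3. Both were well above background on no control array, and were at least 5.45-fold and 1.95-fold higher at 150 mM. ABI2 (AT5G57050) went from 1086, 1121 and 1080.2 to 2231, 2248 and 2271 (2.05-fold), ABI1 (AT4G26080) had a log2 fold change of 0.45 and PP2CA (AT3G11410) of 0.58. HAB1 (log2 0.16) and HAB2 (0.29) were past 0.01 with all arrays but not without replicate 1, with adjusted p = 0.0142 and 0.0539. The seed phosphatase gene AHG1 was not past 0.01 (log2 0.81, adjusted p = 0.245), with control arrays at 55.0, 10.2 and 76.7.

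Downstream of the phosphatases the changes were smaller. The kinase genes SNRK2.2 (AT3G50500) and SNRK2.3 (AT5G66880) had log2 fold changes of 0.022 and 0.031 (adjusted p = 0.595 and 0.328), and the guard cell kinase OST1 (AT4G33950) rose by 0.38, a call that was lost without replicate 1 (0.30, adjusted p = 0.0543). Of the factors the kinases act on, ABF3 (AT4G34000) rose from 3408, 3166 and 3211 to 5672, 5654 and 5360.0 (log2 0.77), ABF2 by 0.38 and ABF4 by 0.32, and ABF1 was not past 0.01 (-0.088) with all arrays but was lower without replicate 1 (-0.17, adjusted p = 0.0037). ABI5 (AT2G36270), a bZIP factor of late seed development and early seedling arrest, rose from 362, 379 and 388 to 809, 900.0 and 1014 (2.41-fold). ABI3 (AT3G24650), a B3 factor of seed maturation, went from 5.97, 3.52 and 4.24, not well above background, to 37.3, 47.4 and 48.3, at least 1.46-fold higher (adjusted p = 1.01e-10). In all, 6 of 9 kinase and factor genes rose and 0 fell, where 27.1% of all genes were higher and 22.9% lower. A further member, ABI4, was too dim to test.

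Genes that make, release or break down abscisic acid did not move together. Of 12 genes, 3 rose and 4 fell, where 27.1% of all genes were higher and 22.9% lower. Their median was -0.24 log2. NCED3 (AT3G14440), the dioxygenase of the committed step that is induced by drought in leaves, read 40.6, 20.1 and 46.0 at 150 mM and 75.7, 21.0 and 43.9 in the control, and was not past 0.01 (adjusted p = 0.755). BGLU18 (AT1G52400), a glucosidase that frees the hormone from its glucose ester, rose from 16762, 16769 and 16342 to 27658, 27184 and 27197 (1.65-fold), and AAO3 (AT2G27150), the oxidase of the last synthetic step, by 0.30 log2. The 8'-hydroxylases that break the hormone down went both ways. CYP707A1 (AT4G19230) rose from 87.9, 75.2 and 91.2 to 123, 131 and 131 (1.51-fold), while CYP707A2 (AT2G29090) fell from 101, 100.4 and 102 to 32.2, 52.2 and 37.9 (2.53-fold lower) and CYP707A3 by 0.29 log2, the last with its probes disagreeing in sign. CYP707A4 read 253, 4.17 and 244, with replicate 2 near the floor, and gave no call.

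Among osmolyte genes the largest rises were those of a proline synthase, a sucrose synthase and a pair of galactinol synthases. P5CS1 (AT2G39800), the stress-responsive enzyme that limits proline synthesis, stood at 12786, 13939.8 and 14252 against 2526, 2654 and 2492 (5.34-fold, adjusted p = 6.46e-21), and ProDH1 (AT3G30775), which starts proline breakdown, fell from 49602, 52384 and 50304 to 33549.9, 33845 and 36518 (1.47-fold lower). The paralogue P5CS2 (-0.011, adjusted p = 0.796) and the reductase P5CR (-0.072, adjusted p = 0.377) were not past 0.01. P5CDH (AT5G62530), the second enzyme of breakdown, rose by 0.78 log2, and of the arginine decarboxylases that feed polyamine synthesis ADC2 (AT4G34710) rose (1.09) and ADC1 (AT2G16500) fell (-0.34). Thus 4 of 10 genes of this list rose and 2 fell, where 27.1% of all genes were higher and 22.9% lower.

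Galactinol synthases supply the galactosyl donor for raffinose. GOLS2 (AT1G56600) stood at 1248, 1227 and 1204 against 133, 145 and 143 (8.74-fold, adjusted p = 6.94e-24) and GOLS4 (AT1G60470) at 1212, 1221 and 1379.6 against 182, 149 and 169 (7.64-fold). GOLS1 (AT2G47180) rose by 0.45 log2 and the cold-responsive GOLS3 (AT1G09350) fell (-0.40). The raffinose synthase RS5 (AT5G40390) fell slightly, from 6462, 6390.5 and 6571 to 5541, 5611 and 5279 (log2 -0.24, adjusted p = 3.79e-07), a direction that turned when all its probes were averaged (0.058, adjusted p = 0.824). Of the sucrose synthases, SUS3 (AT4G02280) rose from 871, 829.6 and 828 to 3677, 3742 and 3811 (4.44-fold) and SUS1 was not past 0.01 (-0.0084). The starch-degrading amylase BAM1 (AT3G23920) rose by 0.38. GOLS4 also differed from the neighbouring doses, being higher than at 100 mM by 1.3 log2 and than at 200 mM by 0.39 (adjusted p = 6.55e-13 and 3.62e-05).

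Sorbitol was used in the study as an osmoticum that Arabidopsis is held not to absorb, and genes for the transport and oxidation of polyols were looked at in turn. The polyol/monosaccharide transporter PMT5 (AT3G18830) rose from 25862, 25691 and 25284 to 33172, 36873 and 35670.2 (log2 0.46, adjusted p = 1.82e-07), and AT5G51970, a locus of the list with no name in the gene table, from 43238, 42202 and 42070.2 to 49486, 53202 and 51674 (log2 0.28). PMT6 rose by 0.24, which missed the threshold without replicate 1 (adjusted p = 0.0123). AT2G20780, annotated as a putative mannitol transporter, fell (log2 -0.46) and AT2G18480 was not past 0.01 (0.0057). All of these changes were under 2-fold, and 5 of the 7 genes of the list were measured.

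Of 19 genes for plasma membrane (PIP) and tonoplast (TIP) water channels, 10 rose, most by small amounts, and 1 fell, with a median of 0.16 log2. Against the control, 27.1% of all genes were higher and 22.9% lower. The root tonoplast channel gene TIP2;3 (AT5G47450) stood at 18525, 19248 and 18272 against 4616, 4416 and 4401 (4.17-fold) and TIP2;2 (AT4G17340) at 80697, 78987 and 84371 against 45620.2, 46979 and 47074 (1.75-fold). PIP2;3 (AT2G37180) and PIP2;4 (AT5G60660) rose by 0.60 and 0.51 log2. PIP1;5 (AT4G23400) alone fell, from 58468, 59411 and 58405 to 48578, 42902 and 40115 (log2 -0.43). Against 200 mM, 13 of the 19 genes were higher at 150 mM and 1 was lower, by a median of 0.31 log2, where 19.4% of all genes were higher and 17.2% lower. The root markers described below were higher than at 200 mM at 9 of 11 genes, by a median of 0.62 log2, and their part in this was not tested.

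**Figure D3:**
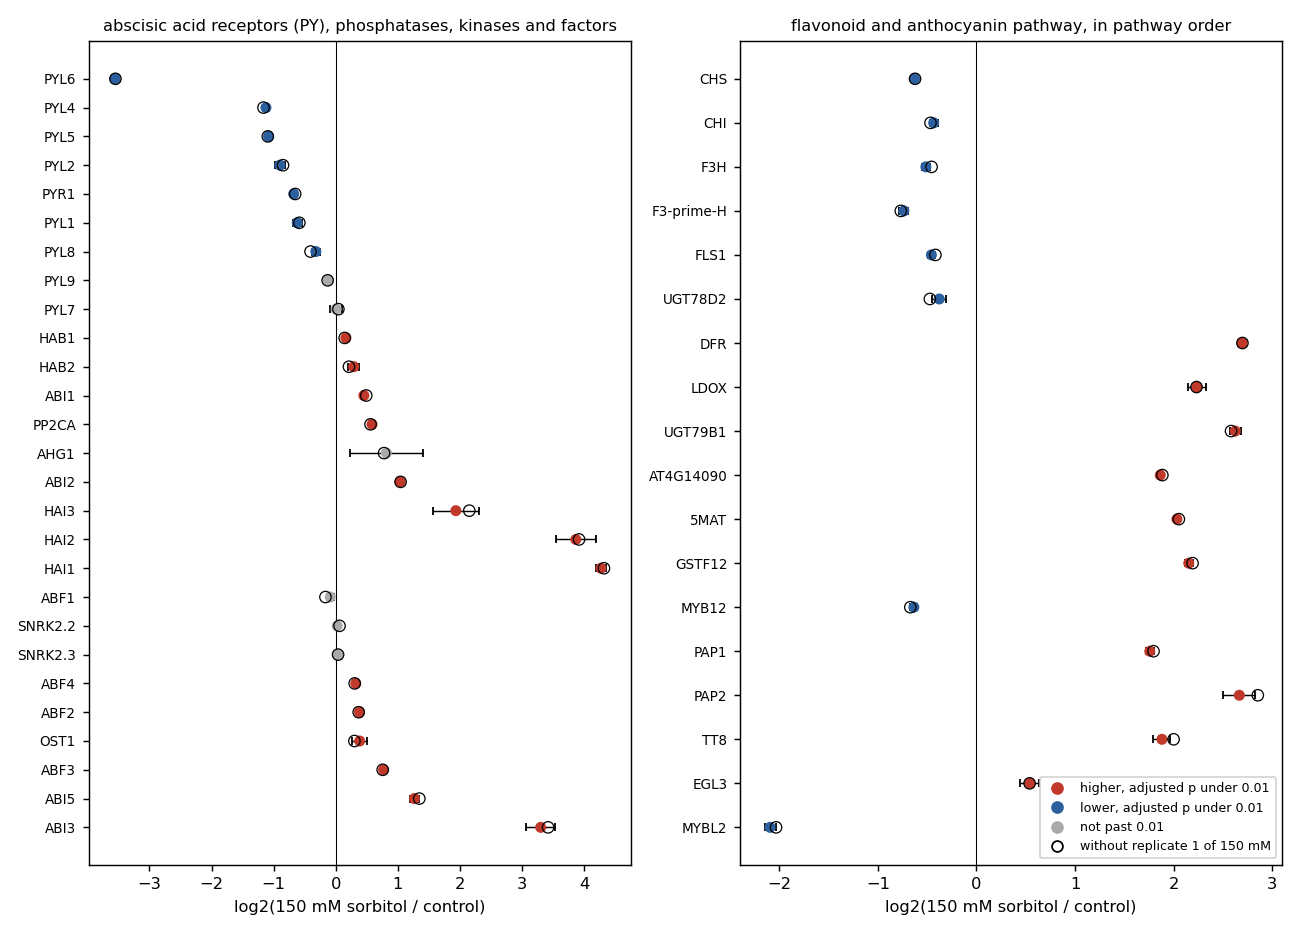
Log2 fold change at 150 mM sorbitol against control (x axis) for the abscisic acid receptors, phosphatases, kinases and factors (left) and for the flavonoid and anthocyanin pathway (right). Filled points are the fit with all arrays, with bars for 1 SE, coloured by direction where past 0.01, and open circles the fit without replicate 1 of 150 mM. The receptors lie near or below 0 and the phosphatases above 0, and on the right CHS, CHI, F3H, F3-prime-H, FLS1 and UGT78D2 lie below 0 while DFR, LDOX and the enzymes listed after them lie at 1.86 or more.

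Stress transcription factors split in direction. Of 19 genes 9 rose and 6 fell, where 27.1% of all genes were higher and 22.9% lower. Their median was 0.078 log2. The homeodomain gene ATHB-7 (AT2G46680), known to respond to abscisic acid, stood at 9660.3, 9968 and 9760.3 against 2727, 2834 and 2836 (3.5-fold, adjusted p = 2.63e-22), and the NAC gene ANAC019 (AT1G52890) at 317, 361 and 354 against 112, 124 and 107.3 (3.01-fold). ATHB-12 and ATAF1 rose by 0.66 and 0.59 log2. Of the DREB and CBF factors, DREB2A (AT5G05410), which drives dehydration and heat genes, fell to 4214, 4490.3 and 4494 from 4938, 4928 and 4894 (log2 -0.16) and DREB2B (AT3G11020) fell by 0.50 log2. The cold regulators CBF2 (AT4G25470) and CBF3 (AT4G25480) fell by 1.18 and 0.69, the latter call being lost without replicate 1 (adjusted p = 0.0131), and CBF1 was not past 0.01 (0.078). CBF4 was higher (0.74) with all arrays only, with adjusted p = 0.0417 without replicate 1. RD26 (-0.029) and ZAT12 (0.032) were not past 0.01 either. On the 6 arrays alone, 6 of these genes were higher and 2 lower.

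Of genes for scavenging of reactive oxygen and for heat shock proteins, 8 of 15 rose and 2 fell. Over all genes, 27.1% were higher and 22.9% lower. The small heat shock protein gene HSP17.6B (AT2G29500) went from 988, 926 and 928 to 2719, 3039 and 2891 (3.04-fold), and HSP17.8 and HSP18.2 rose by 0.71 and 0.72 log2. The chloroplast iron superoxide dismutase FSD1 (AT4G25100) rose from 6440.4, 6602 and 6193 to 16279, 16300.1 and 16606 (2.56-fold, adjusted p = 1.44e-20), whereas its copper-zinc counterparts CSD1 and CSD2 were not past 0.01 (0.12 and -0.035). The photorespiratory catalase CAT2 (AT4G35090) fell by 0.36 log2. APX2, not well above background in the control, read 26.8, 40.7 and 109 on the 150 mM arrays, at least 1.63-fold higher with a wide spread.

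Flavonoid genes divided by branch. All 18 genes measured were past 0.01, 10 higher and 8 lower, with a median of 1.15 log2 (0.41 with PAP2 at its lower bound). The early enzymes, which make flavonols and their precursors, fell. Chalcone synthase, CHS (AT5G13930), read 56349.8, 56138 and 54468 in the control and 35811, 36094 and 36203 at 150 mM (1.54-fold lower, adjusted p = 7.91e-14), and CHI, F3H, the flavonoid 3'-hydroxylase gene AT5G07990 and the flavonol synthase FLS1 had log2 fold changes of -0.43, -0.51, -0.74 and -0.46. Genes of the anthocyanin branch, which starts at dihydroflavonol reductase, rose. DFR (AT5G42800) went from 661, 634 and 655 to 4199.6, 3992 and 4465 (6.48-fold, adjusted p = 3.41e-22), and LDOX (AT4G22880), the anthocyanidin synthase, from 326, 295 and 293 to 1436, 1216 and 1679.9 (4.71-fold). The decorating enzymes UGT79B1 (AT5G54060), AT4G14090 (annotated as a UDP-glucosyl transferase) and 5MAT (AT3G29590) rose 6.17-fold, 3.64-fold and 4.1-fold, and GSTF12 (AT5G17220), needed to bring anthocyanin into the vacuole, 4.45-fold. UGT78D2, a glucosyltransferase that serves flavonols and anthocyanins, fell by 0.38 log2.

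Regulators of the pathway also moved in both directions. PAP1 (AT1G56650), a MYB activator of anthocyanin genes, stood at 1203, 1320.1 and 1283 against 370.2, 376 and 378 (3.38-fold), and its bHLH partner TT8 (AT4G09820) at 229.7, 302 and 286 against 73.4, 78.8 and 68.4 (3.69-fold). PAP2 was well above background on the 150 mM arrays alone (19.1, 29.5 and 27.1, at least 1.22-fold higher), and EGL3 rose by 0.54 log2. The flavonol activator MYB12 (AT2G47460) fell from 4821, 4672 and 4686 to 3199.8, 2923 and 3017 (1.55-fold lower), and MYBL2 (AT1G71030), a repressor of anthocyanin genes, from 8052, 7918 and 7747 to 1703, 1904 and 1961 (4.27-fold lower, adjusted p = 8.10e-18). Every call of this list held without replicate 1, and on the 6 arrays alone 9 genes were higher and 7 lower. Set against 200 mM, the 6 anthocyanin branch enzymes were lower at 150 mM, by -0.74 (AT4G14090) to -1.19 log2 (DFR, adjusted p = 1.33e-15).

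Jasmonate genes of synthesis and of response rose. Of 21 genes, 17 rose and 1 fell, with a median of 0.67 log2. Of the synthetic enzymes, the lipoxygenase LOX2 (AT3G45140) stood at 74048, 83796 and 81553 against 26408, 26736 and 27061 (2.98-fold, adjusted p = 9.50e-17), the cyclase AOC1 (AT3G25760) at 10279.7, 8774 and 9419 against 3282, 3580.2 and 3540.1 (2.73-fold), and AOS and OPR3 rose by 0.58 and 0.67 log2. Of the response genes, CORI3 (AT4G23600), a cystine lyase, went from 3999, 3998 and 3839 to 18075, 19959 and 20568 (4.94-fold) and the vegetative storage protein genes VSP1 (AT5G24780) and VSP2 (AT5G24770) rose 2.79-fold and 2.57-fold. The central factor MYC2 (AT1G32640) rose from 10849, 11030.3 and 10908 to 19002, 20350.4 and 19007 (log2 0.83). Of the JAZ repressor genes, JAZ7 had 1.64, JAZ5 1.3 and JAZ10 0.72, and JAZ8, dim in both groups, was not past 0.01 (adjusted p = 0.986). PDF1.2, given above, was the single fall. Without replicate 1 the counts were 17 and 1.

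Of 22 glucosinolate genes 10 rose and 4 fell, where 27.1% of all genes were higher and 22.9% lower. Their median was 0.095 log2. The MYB factor MYB76 (AT5G07700), an activator of methionine-derived glucosinolates, rose from 109, 115 and 116 to 449, 460.3 and 448 (4.0-fold) and MYB29 by 0.64 log2. The paralogous chain-elongated methionine hydroxylases went in opposite directions. CYP79F1 (AT1G16410) rose from 9073, 9110.2 and 8647 to 20480.2, 20616 and 19218 (2.25-fold) and CYP79F2 (AT1G16400) fell from 2033, 2096 and 2112 to 1048, 1088 and 1049 (1.96-fold lower). The same held for the methylthioalkylmalate synthases, MAM1 (AT5G23010) with 0.57 and MAM3 (AT5G23020) with -0.87 log2.

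Most salicylate-linked genes were higher at 150 mM than in the control, and many also higher than at both neighbouring doses. Of 17 genes, 12 rose against the control and 2 fell, with a median of 0.95 log2 (0.71 with PR1 at its lower bound). Set against the other doses, 10 of them were higher than at 100 mM and than at 200 mM, where 8.78% of all genes were, and the count was also 10 without replicate 1. NIMIN1 (AT1G02450), a protein that binds the salicylate receptor NPR1, stood at 386, 403 and 371 at 150 mM, 148, 146 and 156 at 100 mM, 117, 116 and 107.2 at 200 mM and 69.4, 74.7 and 76.3 in the control. SARD1 (AT1G73805), a factor that switches on salicylate synthesis genes, read 1253, 1188 and 1302 at 150 mM, 452, 444 and 396 at 100 mM, 628, 613 and 614 at 200 mM and 395, 428 and 448 in the control. In both genes the lowest 150 mM array lay above the highest array of either neighbouring dose, and the excess over 200 mM was 1.77 and 1.01 log2 (adjusted p = 5.97e-18 and 3.17e-12). PR2 read 504, 499 and 508 at 100 mM and 2726, 2419.7 and 2481 at 200 mM, against 4796, 4562 and 4379 at 150 mM and 5146, 5442 and 5344 at 250 mM, where it was higher still. NIMIN1 read 148, 147 and 147 and SARD1 798, 814 and 824 at 250 mM, and the median of the list was 0.76 log2 above the control there.

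Other members of the list behaved less uniformly. PR5 (AT1G75040), a thaumatin-like protein, rose from 3340.4, 3229.8 and 3210.0 to 8654, 8948 and 9224 (2.74-fold), and PBS3 (AT5G13320) and ALD1 (AT2G13810), enzymes of salicylate and pipecolate synthesis, by 0.95 and 1.56 log2. The synthase gene ICS1 (AT1G74710) rose by 0.45 and the signalling genes EDS1 and CBP60G by 0.25 and 0.71. PR1 was dim and not past 0.01 (adjusted p = 0.0561). PAD4 (AT3G52430) fell by 0.53 and PAD3 (AT3G26830), the last enzyme of camalexin synthesis, from 3157, 3258 and 3181 to 1618, 1852 and 1791 (1.83-fold lower), whereas CYP71A13, an earlier enzyme of the same pathway, read 163, 216 and 213 against 96.5, 99.7 and 101. NPR1 (-0.032) and EDS5 (0.065) were not past 0.01.

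All 11 iron genes were past 0.01, 4 higher and 7 lower, with a median of -0.88 log2. Among the falls were the bHLH regulators that iron deficiency induces. BHLH100 (AT2G41240) went from 321, 317 and 313 to 27.4, 41.9 and 34.2 (9.32-fold lower, adjusted p = 4.53e-16), BHLH38 (AT3G56970) from 524, 572 and 567 to 61.1, 87.4 and 88.8 (7.10-fold lower), and BHLH39 and BHLH101 were 3.73-fold and 1.85-fold lower. FER1 (AT5G01600), the iron storage protein ferritin, rose from 25560.3, 26564 and 26879 to 90631, 93849.7 and 96291 (3.55-fold, adjusted p = 4.63e-19). The root uptake genes were also higher. The iron transporter IRT1 (AT4G19690) rose from 298, 328 and 314 to 530.1, 558 and 585 (log2 0.83) and the ferric reductase FRO2 (AT1G01580) by 0.28, and FIT (AT2G28160), the bHLH factor that controls both, by 0.25. Against 100 mM, 10 of the 11 genes were lower at 150 mM and 1 higher, where 18.5% of all genes were lower, and the median difference was -1.79 log2. At 100 mM IRT1 read 2471, 2767 and 2397 and FER1 26390.4, 26191 and 28228. From 100 to 150 mM the log2 difference was -2.19 for IRT1 and 1.80 for FER1 (adjusted p = 1.85e-15 and 2.71e-18).

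In sulfur and nitrate assimilation, 4 of 10 genes rose and 2 fell, where 27.1% of all genes were higher and 22.9% lower. The sulfate transporter SULTR1;2 (AT1G78000) rose from 5998, 5833 and 5606 to 12529, 13896 and 13476 (2.29-fold) while SULTR1;1 (AT4G08620) fell by 0.46 log2, and the sulfur deficiency marker LSU1 (AT3G49580) rose by 1.01. The nitrate reductase genes NIA1 and NIA2 and the transporter NRT2.1 were not past 0.01 (-0.085, 0.034 and 0.11). Of carbon starvation markers, ASN1 (AT3G47340), an asparagine synthetase repressed by sugar, rose from 5343, 4127 and 5249 to 10071, 11451 and 10969 (2.22-fold), and DIN2, DIN10 and SEN1 fell by 0.84, 0.44 and 0.32.

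Of 10 clock genes 7 fell and 1 rose, with a median of -0.61 log2. The pseudo-response regulator PRR5 (AT5G24470) fell from 17489.8, 18494 and 19196 to 5349.6, 5598 and 5706 (3.31-fold lower, adjusted p = 2.31e-18), GI (AT1G22770), a clock gene of the late day, from 13344, 14129 and 14119.5 to 6265, 6718 and 6506 (2.13-fold lower), and PRR7 (AT5G02810) from 8956, 9102 and 8889 to 4658, 5003 and 4858 (1.86-fold lower). The morning genes gave -0.62 log2 for CCA1 and 0.31 for LHY, both dim and both past 0.01, although the LHY call did not last. Its log2 difference was 0.010 with the normexp background (adjusted p = 0.847), and it missed 0.01 on the 6 arrays alone (adjusted p = 0.0506), with slide as a random block (0.0363), on the 75th percentile scale (0.0171), and without control replicate 2 (0.0262) or 150 mM replicate 2 (0.0223). The evening complex gene LUX (AT3G46640) fell by 0.60, and ELF3 (0.036) and ELF4 (-0.032) were not past 0.01. PRR9 (-1.22) was past 0.01 with all arrays but not without replicate 1 (adjusted p = 0.0408). The hour of harvest of each group is not given in the sources used here, so its part in these values was not tested.

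Cell wall loosening genes moved in both directions (6 of 15 rose and 6 fell, where 27.1% of all genes were higher and 22.9% lower). The xyloglucan endotransglucosylase XTH24 (AT4G30270) fell from 17614, 17972 and 17514 to 5359, 5922 and 5578 (3.15-fold lower), and EXPA5 (AT3G29030), an expansin of growing leaves, from 3068, 3004 and 2848 to 1482, 1519 and 1570.3 (1.95-fold lower). EXPA1 (AT1G69530), an expansin of guard cells and growing organs, rose from 5291, 5569 and 5508 to 13094, 11957 and 11545 (2.23-fold). Auxin genes also went both ways, with 9 of 25 higher and 9 lower, beside the same shares of all genes. The early response gene IAA5 (AT1G15580) rose from 133, 136 and 137 to 290.5, 308 and 301 (2.21-fold), and IAA3 by 0.55 log2, while IAA19 (AT3G15540), IAA6 (AT1G52830) and the amide synthetase genes GH3.1 and GH3.2 fell by 0.45, 0.83, 0.47 and 0.73. Of the nitrilase genes, NIT1 (0.048) and NIT2 (0.078) were not past 0.01, NIT3 fell by 0.37, and NIT4 (AT5G22300), which detoxifies cyanoalanine, fell from 3826, 3815 and 3858 to 1668, 1959 and 1985 (log2 -1.04). The synthetic gene TAA1 rose by 0.47.

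Cell cycle and DNA replication genes changed little against the control. Of 20 genes 5 rose and 2 fell, where 49.9% of all genes changed, and the widest change below 0 was -0.26 log2 for SIM, an inhibitor of mitosis in endoreduplicating cells. The replication helicase gene MCM4 (AT2G16440) read 3071, 2777 and 2665 against 2409.7, 2415 and 2289 (log2 0.26, the widest above 0), a call that was lost without replicate 1 (adjusted p = 0.0109). Without replicate 1 the counts were 3 and 1, and on the 6 arrays alone 0 rose and 1 fell. Against 100 mM, however, 13 of the 20 were higher at 150 mM and 0 lower, where 25.4% of all genes were higher. Of the root markers described below, 9 of 11 were higher than at 100 mM as well, by a median of 0.41 log2, and their part in this was not tested.

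The 22 shoot markers, genes for light-harvesting proteins and Rubisco small subunits, had 4 members lower and 0 higher, a median of -0.056 log2, and a mean signal per gene between 244232 and 245090.0 on the control arrays and between 235409 and 244161 at 150 mM. The falls were those of LHCB2.1 (AT2G05100), from 1590.2, 1676 and 1645 to 890.4, 813 and 839.5 (1.93-fold lower), LHCB2.2, LHCB2.3 and LHCB4.3. Members of these families are near-identical and very bright, and their values may not separate the copies. The 11 root markers, genes of the endodermal Casparian strip, root hairs and root-specific proteins, had 2 members higher and 0 lower, a median of -0.011 log2, and a mean signal per gene between 15551 and 15899 on the control arrays and between 16809 and 17409 at 150 mM. With slide as a random block 2 root markers were higher and 3 lower, and without 150 mM replicate 2 there were 2 lower. All markers of both lists exceeded background on each of the 6 arrays. The mean signals did not overlap between the groups in either list, as was so for the signals of 60.5% of all genes. For the shoot markers the nearest arrays were almost equal, at 244232 in the control and 244161 at 150 mM. With each array scaled to its 75th percentile, 18 shoot markers were lower and 0 higher, and 2 root markers were lower.

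Against the neighbouring doses the root markers did differ. Their median log2 difference from the control was -0.45 at 100 mM, -0.011 at 150 mM, -0.66 at 200 mM and -0.47 at 250 mM, and 8 of the 11 were higher at 150 mM than at both 100 and 200 mM, also without replicate 1, where 8.78% of all genes were. CASP1 (AT2G36100), a membrane protein that positions the Casparian strip, read 13733, 14400.5 and 14605 at 150 mM, 14469, 14432 and 14160.0 in the control, 10481, 10493 and 10328 at 100 mM and 8436, 9549 and 9276 at 200 mM. RSL4 (AT1G27740), a bHLH factor of root hair growth, read 1852, 1952 and 1886 at 150 mM, 1970.4, 1999 and 1917 in the control, 1443, 1412 and 1436 at 100 mM and 1125, 1115 and 1153 at 200 mM. The root share of the harvested tissue was not measured, and its part in the differences between doses was not tested.

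Seed and embryo markers were dim. Of 10 genes tested, 8 were well above background on no control array and 3 on no 150 mM array, and 6 were called higher and 2 lower. Their summed signal lay between 438 and 459.7 on the control arrays and between 451 and 586 on the 150 mM arrays, so the groups overlapped. EM6 (AT2G40170), a late embryogenesis abundant protein of dry seeds, rose from 55.0, 61.6 and 58.6 to 143, 162 and 165 (2.68-fold), and CRA1, a cruciferin storage protein, read 25.4, 41.8 and 38.5 on the 150 mM arrays and at most 10.9 in the control. The median log2 difference from the control was 1.24 at 150 mM and 3.54 at 200 mM. The 150 mM value was 0.073 with members below background at their bound, or at 0 where there is none. Of the 10 genes, 7 were called lower at 150 mM than at 200 mM. A gene was tested if any 1 group had it well above background, so dim members could enter through the group where they are high. The counts higher than the control and lower than 200 mM therefore lend no support of their own. Without replicate 1 the counts against the control were 6 and 1. ABI3, ABI5 and EXPA2, given above, are genes of seeds or germination too, and the part of seed tissue in their values was not tested.

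Of 21 suberin and cuticular wax genes 10 rose and 4 fell, where 27.1% of all genes were higher and 22.9% lower. The wax genes CER1 (AT1G02205), needed for alkanes, and CER6 (AT1G68530), for very long chain acids, rose from 8827, 8922 and 8727 to 12302, 14407 and 14238 and from 41072, 40411 and 39611 to 56209, 57756 and 61599 (log2 0.63 and 0.53), and MYB96 (AT5G62470), a wax activator known to respond to abscisic acid, rose by 0.52. The suberin genes ASFT (AT5G41040), a feruloyl transferase, and ABCG2 (AT2G37360), a transporter, fell from 11420.1, 11069.9 and 10886 to 4653, 6374 and 2955 and from 1530.4, 1627 and 1595 to 781, 617 and 592 (log2 -1.32 and -1.27), and GPAT7 fell by 0.76, whereas GPAT5 (-0.11) and CYP86A1 (0.010) were not past 0.01 and the suberin transporter gene ABCG6 rose by 0.17. The ASFT signal varied over 2-fold between the 150 mM arrays.

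Of 10 chlorophyll synthesis genes, 2 rose and 2 fell with all arrays, 1 and 2 without replicate 1, and 0 and 1 on the 6 arrays alone, with CRD1 (AT3G56940), the cyclase subunit, lower by 0.47 log2 (101703, 100389 and 98731 to 72375, 68361 and 76890.4). Of 7 senescence genes 4 rose, among them the NAC regulator ORE1 (AT5G39610) by 0.61 log2, and 0 fell. Over all genes, 27.1% were higher and 22.9% lower with all arrays. A further member, SAG12, was too dim to test.

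**Figure D4:**
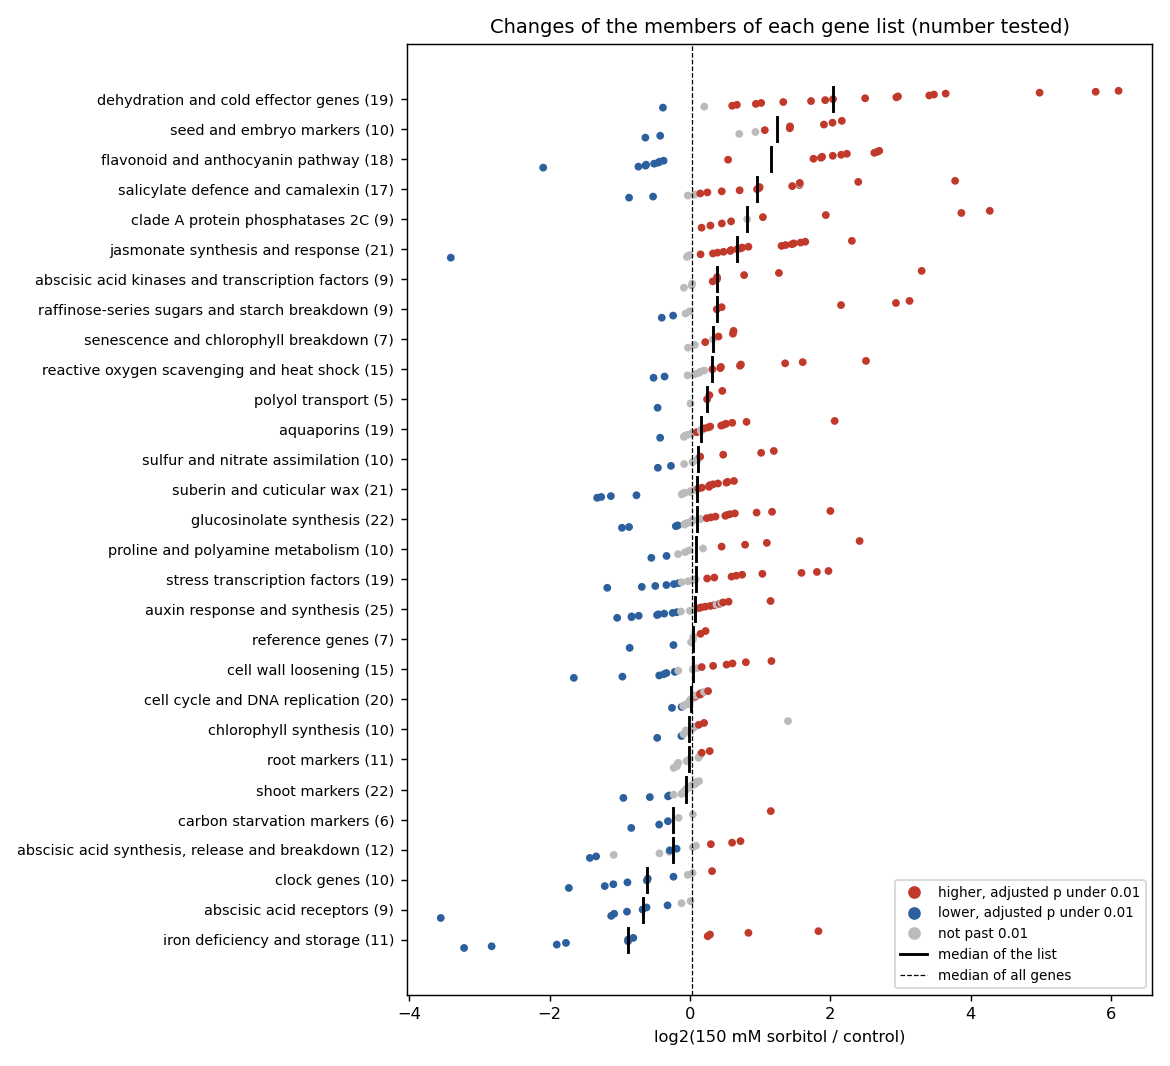
Log2 fold change at 150 mM sorbitol against control (x axis) of each tested member of the gene lists (1 row a list, number tested in parentheses), coloured by direction where past 0.01, with the median of each list as a black bar and the median of all genes (0.022) as a dashed line. The dehydration effectors, at a median of 2.04, lie furthest to the right and the iron genes, at -0.88, furthest to the left.

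The 150 mM group was also set against the doses on either side, in comparisons that use no control array. It differed from 100 mM at 9450 genes (43.9%), 549 of them by at least 2-fold (2.55%, 1.5% higher and 1.05% lower), and from 200 mM at 7870 genes (36.6%), 445 by at least 2-fold (2.07%, 0.632% higher and 1.44% lower). The shared slides of 150 and 200 mM allow a fit that holds slide fixed, in which 5528 genes differed between these doses. On the arrays of each pair alone the counts were 3740 and 2405. The root mean square distance of the 150 mM mean was 0.61 log2 from the control, 0.43 from 100 mM, 0.38 from 200 mM and 0.41 from 250 mM. Taken singly, replicate 1 lay nearer to the 100 mM mean (0.44) than to that of 200 mM (0.47), and replicates 2 and 3 nearer to 200 mM (both 0.43) than to 100 mM (both 0.51).

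At 3524 genes (16.4%) the 150 mM group was past 0.01 in the same direction against both 100 and 200 mM, above both at 1888 and below both at 1636 (7.61%), and 3225 of these held without replicate 1. The difference was at least 2-fold from both doses at 143 genes. Of the 61 such genes that were higher at 150 mM, 40 were also at least 2-fold above the control at 250 mM. WRKY38 (AT5G22570), a transcription factor linked to basal defence, read 500.4, 577 and 586 at 150 mM, 53.7, 58.1 and 53.2 at 100 mM, 139.6, 174 and 175 at 200 mM and 423, 408 and 414 at 250 mM, with 47.4, 37.1 and 45.1 in the control. ANK (AT5G54610), an ankyrin-repeat protein, read 796, 849 and 798 at 150 mM, 97.6, 108 and 113 at 100 mM, 220.2, 236 and 227 at 200 mM and 421, 426 and 414 at 250 mM. In both genes every 200 mM array lay below every 150 and 250 mM array. The other 3 of the 5 most elevated, AT4G00130, AT2G17680 and AT3G27600, were dim, with signals of at most 47.8 at 150 mM.

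Genes lower at 150 mM than at both neighbours were mostly bright. Of the 82 at least 2-fold below both doses, 77 exceeded background on each of the 6 arrays of the 150 mM and control groups, and 77 were at least 2-fold below the control at 250 mM as well. EBF1 (AT2G25490), an F-box protein that marks the ethylene factor EIN3 for degradation, read 1104, 1289 and 1241 at 150 mM, 5516, 5421 and 5396 in the control, 3686, 3858 and 3603 at 100 mM, 5095, 5445 and 5349 at 200 mM and 523, 505 and 530.2 at 250 mM. For AT3G56480 the values were 291, 288 and 303 at 150 mM, 1069, 1067 and 1075 in the control, 1099.5, 1163 and 1197 at 100 mM, 1416, 1448 and 1492 at 200 mM and 108, 117 and 94.7 at 250 mM. A dim probe of EBF1, with a mean signal of 32.2 in the control, gave -0.099. The replicates of each group lay close together in both genes, and the 200 mM arrays read like the control or higher. Low values of these genes were not confined to sorbitol. On 50, 75, 100 and 125 mM NaCl the EBF1 means were 1826, 5230, 7521 and 9021. Those of AT3G56480 were 425, 1161, 1867 and 3891. BTS (AT3G18290), an E3 ligase that restrains iron uptake, fell from 1364, 1333 and 1303 to 419.8, 373 and 382 at 150 mM and had log2 differences from the control of 0.019, -0.38 and -2.77 at 100, 200 and 250 mM. CYP707A2, EXPA11, IAA13 and ERD14 of the lists above, and the unnamed AT4G21720, were likewise lower at 150 and 250 mM than at 100 and 200 mM, with differences of -1.34, -0.44, -0.83, -0.39 and -1.68 at 150 mM and of -2.40, -1.28, -1.36, -0.87 and -3.17 at 250 mM. Where another bright probe existed (26 of the 82 genes), it moved by less than 0.5 times the reported probe's difference in 6. Of AT3G56480 the other probe gave a log2 fold change of -0.71 at 150 mM against -1.87 for the reported one. Another BTS probe, well above background on all 6 arrays, gave -0.16 at 150 mM against -1.77 for the reported one. At 200 and 250 mM this probe gave -0.42 and -0.80, so it was not lower at 150 mM than at 200 mM. The 150 mM replicates were on slides 4 and 6 together with the 200 mM replicates, and the 250 mM arrays were on slide 7. The part of the slides in this pattern was not tested.

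**Figure D5:**
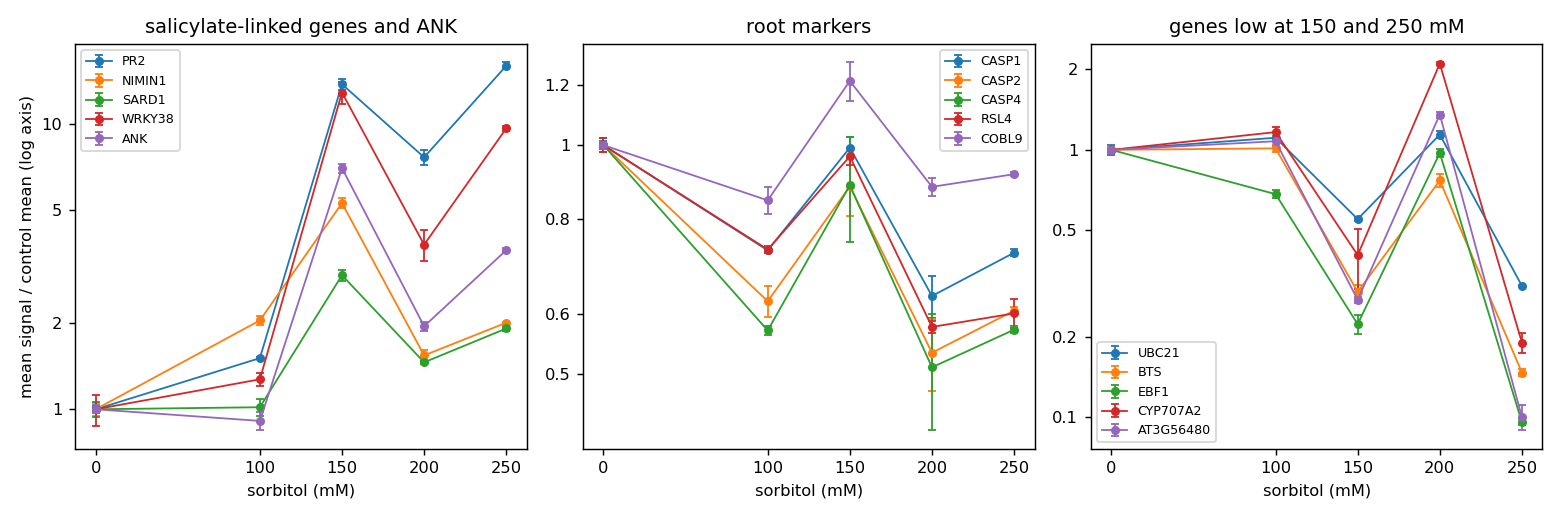
Mean signal relative to the control mean (log axis) against the sorbitol concentration, with bars for 1 SD (n = 3 arrays), for salicylate-linked genes with ANK (left), root markers (middle) and genes low at 150 and 250 mM (right). At 150 mM the genes of the left and middle panels stand above both neighbouring doses, and at 150 mM those on the right are lower than at both.

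Reference genes were checked beside these. UBC21 (AT5G25760), a ubiquitin-conjugating enzyme commonly used as a reference, fell from 4777, 4499 and 4360.3 to 2506, 2539.7 and 2459 (1.82-fold lower, adjusted p = 5.68e-14), and its log2 difference from the control was 0.15, 0.19 and -1.69 at 100, 200 and 250 mM. UBQ10 (0.047), UBC9 (0.014) and AT4G34270 (0.040) were not past 0.01. GAPC2 (0.22) was past 0.01 with all arrays and not without replicate 1 (adjusted p = 0.0154), and its direction turned under the 75th percentile scale (-0.12, adjusted p = 0.457), and PP2AA3 fell by 0.24. The sodium transporter genes SOS1 and NHX3 were not past 0.01 at 150 mM (0.17 and 0.22, adjusted p = 0.0274 and 0.0324), although NHX3 was past it without replicate 1 (0.00744).

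Leaving out replicate 1 changed a number of calls. Of the 10737 genes, 1187 were not past 0.01 without it, and 788 others were past 0.01 only without it. The count past 0.01 was 10274 without replicate 2 and 10184 without replicate 3, against 10338 without replicate 1. The largest changes lost were in dim genes. The MYB gene MYB97 (AT4G26930) read 146, 18.0 and 26.6 at 150 mM against 6.18, 4.1 and 4.1 in the control, and its call was lost without replicate 1 (adjusted p = 0.0529). The potassium channel gene KCO2 (AT5G46370) read 82.1, 24.1 and 19.5 against 9.14, 4.35 and 10.8, and lost its call likewise (adjusted p = 0.0249). AT2G34320 and AT4G17580 were the other 2 of the largest rises lost. On the lower side the calcium pump gene ACA7 (AT2G22950) read 9.08, 18.7 and 14.9 against 109, 48.0 and 76.6 (adjusted p = 0.0256 without replicate 1), and AT1G44085, DD11 and AT3G10510 were lost with it. For AT1G44085 the size of the difference hardly moved (log2 -2.69 with all arrays and -2.68 without replicate 1). The gene furthest above the other replicates on replicate 1 was AT2G03936 (161, 4.14 and 4.27), followed by AT2G29780, the alternative oxidase gene AOX1B (AT3G22360) (139.5, 7.45 and 5.48) and AT5G44360 (627, 34.0 and 24.8). At 100 mM AOX1B read 148, 124 and 107.2 and AT5G44360 713, 548 and 426, close to replicate 1 of 150 mM, and those arrays were on slides 4 and 5. Furthest below were DRP4C, AT2G41930, AT2G07705 and AtMT4b, with differences of -2.61 to -3.18 log2 between replicate 1 and the others, and none of these 8 was past 0.01 against the control.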

How the data were processed

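RNA from whole seedlings had been labelled in 1 colour and hybridised to Agilent Arabidopsis V4 arrays, 1 array a sample, and scanned with Agilent Feature Extraction (version 10.7 in the submitters' processing notes). Per the file headers, the deposited spot intensity (processed signal) is background-subtracted and spatially detrended, with flags for spots well above background, saturated or outlying. The authors quantile normalised these intensities between all 27 arrays, and the table of normalised intensities they deposited has 100% of its values within 0.1% of the quantile normalised signal computed here.

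Control spots were left out (43803 spots of 43603 probes remained), and 530 outlying spot values (0.0448%) were masked. Gene names came from RefSeq locus tags, which matched 34369 spots to a single gene. Of 25383 genes, 6919 had more than 1 probe, and the brightest was used. A gene was tested if the 3 arrays of any 1 group all had it well above background. The log2 signals, computed from the deposited intensities, were fitted with limma (3.58.1, R 4.3.3) as 9 group means over all 27 arrays, two-sided, with Benjamini-Hochberg adjustment over 21509 genes. The script was tested on simulated data with independent noise and no slide effect, so that test cannot check calls where slide and treatment coincide. Signals of different genes come from different probes and are not compared. The 3 arrays a group limit the precision, and 3069 called genes had more than 1 bright probe, of which 385 disagreed in sign.

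Members and gene lists were chosen with earlier results of these data known. Named genes are list members, the 12 largest rises and falls (past 0.01 also without replicate 1 of 150 mM, not overlapping, well above background on all 6 arrays), up to 5 of the largest bounds each way, 5 each way apart from both neighbouring doses, 4 each way lost without replicate 1 and 4 each way furthest off on replicate 1, besides genes that the study names. PORA and the genes given with BTS for being low at 150 and 250 mM were chosen after their values were seen. A list of cytosolic ribosomal proteins matched 7 genes only and was dropped.

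Same-numbered arrays of 150 and 200 mM lie on shared slides and deviated together from their group means (correlations of 0.50, 0.15 and 0.23). The shared slides alone can give such values, so they cannot show that the numbers pair the arrays. Same-numbered arrays of 150 mM and control, which share no slide, did not deviate together (0.058, -0.030 and -0.016). Alternatives were the 75th percentile scale, normexp background correction (offset 50), the deposited table, keeping dim probes, averaging the probes of a gene, the compared arrays alone, array weights, slide and replicate blocks, an adjusted p under 0.05, and each array left out. Fits without replicate 1 of both 150 and 200 mM, and on the 6 arrays alone without it, were chosen after seeing the data.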

Additional observations from a re-analysis of the deposited data

How the results depend on the processing

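Most counts of genes past 0.01 stayed within 1.5 times of their value under every alternative run. The exceptions were the fits on only the arrays compared and the normexp background. Fits on only the arrays compared gave 6590 genes against the control (10737 with all arrays). They gave 3740 genes against 100 mM, 2405 against 200 mM and 1229 apart from both. With the normexp background, 563 changes were at least 2-fold, against 1386. What lowered these counts was not tested. No filter on dim probes, averaged probes, array weights and slide as a random block gave 9603 to 11282 genes against the control, and an adjusted p under 0.05 gave 12933. Without single arrays the counts ran from 9663 to 10338 against the control, from 1330 to 1423 at 2-fold or more, from 7974 to 10655 against 100 mM, from 6961 to 8137 against 200 mM and from 2974 to 4088 apart from both. On the 6 arrays without replicate 1 of 150 mM, 7593 genes differed from the control, 1210 by at least 2-fold. Without replicate 1 of both 150 and 200 mM, 11455 genes differed from the control, 11727 from 100 mM and 8265 from 200 mM.

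With the replicate number as a block, 11130 genes differed from the control (1397 by at least 2-fold), 9969 from 100 mM and 8319 from 200 mM, and 3730 lay apart from both. This moved no count by over 1.5 times, although the numbers were not shown to pair the arrays of any groups. With slide as a fixed block 5528 genes differed from 200 mM.

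Of 274 named genes tested against the control, 225 were past 0.01, and 41 of these lost the call under at least 1 alternative, 30 on the compared arrays alone and 18 without replicate 1 of 150 mM. The direction turned for GAPC2 on the 75th percentile scale (log2 -0.12, not past 0.01), for RS5 with averaged probes (0.058, not past 0.01) and for CYP707A4, not past 0.01 with all arrays but higher without 150 mM replicate 2, an array near the floor (log2 -2.09 to 0.88 over single arrays left out). In 30 further genes past 0.01 in neither fit the sign changed. The causes were not tested. The number of arrays and signal over background limit the calls of dim genes.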
